A study of Mus musculus with 4 samples.

Results

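The WNT ligands, their Frizzled receptors and 2 families of secreted antagonists, the Dickkopf and secreted Frizzled-related (Sfrp) proteins, were examined in mouse melan-a melanocytes, an established pigment cell line. Members were all genes whose symbol in the annotation of the Affymetrix mouse array was Wnt, Fzd or Dkk with a number and at most an a or b, or Sfrp with a number. This gave 37 of 18193 genes on the array, namely 19 Wnt, 10 Fzd, 4 Dkk and 4 Sfrp genes. They were read by 73 probe sets, and each gene was represented by its probe set of highest mean over the 4 arrays. Of the members, 15 had a single probe set and 22 had several.

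Total RNA of 4 cultures was hybridised, 1 array per condition and with no replicates. The cultures were Hmhi-MYC-TA cells with EGF, Hmhi-Miz1 kd cells (pS-Miz1 in the source label) with EGF, Hmhi cells with EGF and starved Hmhi cells. All 4 were kept 14 days in DMEM with 10% dialyzed serum, and the EGF cultures received 100 ng/ml. The labels expand neither Hmhi nor MYC-TA, and do not say whether a line is 1 clone. Each difference therefore compares 2 cultures, was not tested and carries no p-value. Precision is limited by this number of arrays.

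WNT ligands are secreted lipid-modified proteins that bind Frizzled receptors on the cell surface. With the co-receptors Lrp5 and Lrp6 they stabilise beta-catenin, which then acts with TCF and LEF factors on target genes, while other ligand and receptor pairs act through planar cell polarity proteins or calcium. Sfrp proteins bind WNT ligands outside the cell, and Dickkopf proteins other than Dkk3 act on the Lrp co-receptors. In the pigment lineage WNT signals help to set the fate of neural crest cells, and beta-catenin acts on Mitf, the master regulator of melanocytes.

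For 5 of the 8 members at least 2-fold apart in some comparison, RefSeq (GRCm38.p6) gave a proximal promoter, from 250 bases before to 50 after the start. The sequences of 4, those of Fzd4, Fzd9, Wnt6 and Wnt9a, are shown. That of Fzd7, which like those of Fzd4 and Wnt6 holds no CACGTG, is not shown. Capitals mark CACGTG, a palindromic E-box that MYC with MAX, and also MITF, can bind.
Fzd4 (chr7:89404116-89404415, plus strand): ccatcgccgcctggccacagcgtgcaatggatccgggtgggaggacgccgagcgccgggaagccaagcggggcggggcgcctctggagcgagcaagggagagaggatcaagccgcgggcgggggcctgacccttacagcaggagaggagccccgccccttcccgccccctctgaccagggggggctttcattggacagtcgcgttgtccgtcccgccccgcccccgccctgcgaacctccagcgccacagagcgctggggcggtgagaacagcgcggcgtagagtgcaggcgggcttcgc
Fzd9 (chr5:135250998-135251297, minus strand): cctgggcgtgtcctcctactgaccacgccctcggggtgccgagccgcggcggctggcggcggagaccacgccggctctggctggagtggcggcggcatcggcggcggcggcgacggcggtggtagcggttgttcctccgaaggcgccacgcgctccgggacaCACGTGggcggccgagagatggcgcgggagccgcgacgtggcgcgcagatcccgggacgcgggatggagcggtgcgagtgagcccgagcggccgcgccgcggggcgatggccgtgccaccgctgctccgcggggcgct
Wnt6 (chr1:74771642-74771941, plus strand): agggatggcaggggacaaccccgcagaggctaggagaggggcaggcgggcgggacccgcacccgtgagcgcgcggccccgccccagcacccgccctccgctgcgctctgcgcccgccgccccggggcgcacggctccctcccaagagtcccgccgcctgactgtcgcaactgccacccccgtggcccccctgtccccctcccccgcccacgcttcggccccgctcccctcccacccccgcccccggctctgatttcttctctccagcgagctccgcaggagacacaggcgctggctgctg
Wnt9a (chr11:59306680-59306979, plus strand): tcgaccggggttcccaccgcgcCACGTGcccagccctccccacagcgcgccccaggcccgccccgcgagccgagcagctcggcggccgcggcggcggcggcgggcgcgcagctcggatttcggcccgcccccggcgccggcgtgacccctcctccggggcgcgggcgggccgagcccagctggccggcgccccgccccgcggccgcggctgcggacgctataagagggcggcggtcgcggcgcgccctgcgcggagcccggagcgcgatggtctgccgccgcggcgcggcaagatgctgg

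Both strands were searched for CACGTG, for CATGTG (an E-box that MITF also binds), for CTTTGA (the core of TCF and LEF sites) and for TGANTCA (the AP-1 site). CACGTG lay 88 bases before the start in Fzd9 and 228 bases before it in Wnt9a, and in no other of the 28 promoters found for 25 members. Of all 32851 promoters of this length, 7.15% held it. CTTTGA was in 4 of the 28 member promoters (in Dkk1, Fzd1, Wnt11 and Wnt5b) against 16.0% of all, TGANTCA in 1 (Wnt5b) against 7.81%, and CATGTG in none against 14.2%. The 4 promoters shown held between 72.7% and 83.3% G and C, and that of Fzd7 66.7%, against a median of 52.7% over all promoters. A match is only a run of letters, and binding was not measured.

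Signals are on a log2 scale, and the median of non-control probe sets was 6.66 on each array. Signals of different probe sets do not rank transcripts by abundance, so each gene is read against this median and against itself. The melanocyte label was borne out by Sox10, Tyrp1, Mlana and Gpnmb, and in all 11 of 14 markers lay above the median on the MYC-TA array, 11 on the array labelled Miz1 kd, 12 on Hmhi EGF and 11 on Hmhi starved. Tyr and Ednrb lay below it on every array. Zbtb17, which encodes Miz-1, read 9.08 on the array labelled Miz1 kd and 8.72 on Hmhi EGF, so this transcript does not bear out the label and directions below are those of the array as it was labelled. For Myc the single probe set gave 9.78 in MYC-TA and 10.60 in Hmhi EGF. Cth, the cystathionase gene, read 8.30 in MYC-TA, 6.20 in the labelled Miz1 kd, 5.18 in Hmhi EGF and 4.34 in Hmhi starved. The spread between probe sets of a gene was the only error available, with an SD of 0.32 for EGF against starved, 0.22 for the labelled Miz1 kd against Hmhi EGF, 0.25 for MYC-TA against Hmhi EGF and 0.41 for MYC-TA against the labelled Miz1 kd. In whole cultures, fewer cells of a kind and less RNA per cell cannot be told apart.

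The receptors were the broadly detected part of the family. Above the array median lay 20 of 37 members in MYC-TA (54.1%, against 62.4% of all genes), 21 on the array labelled Miz1 kd (56.8%, against 60.8%), 20 in Hmhi EGF (54.1%, against 61.4%) and 20 in Hmhi starved (54.1%, against 60.3%). In all, 19 members lay above it on all 4 arrays, 2 on some and 16 on none. Of the 10 Frizzled genes, 9 were above it throughout and Fzd10 stood close to it, at 7.00 in MYC-TA, 6.86 in the labelled Miz1 kd, 6.64 in Hmhi EGF and 6.62 in Hmhi starved. Of the 19 ligands, 6 were above it throughout (Wnt3a, Wnt4, Wnt6, Wnt7a, Wnt7b and Wnt9a) and Wnt10a on 3 arrays. The other probe sets of Wnt4, Wnt7a, Wnt7b and Wnt9a lay below it on every array, as did those of Fzd1, Fzd5, Fzd7 and Fzd10. Of the antagonists, Dkk3, Sfrp1, Sfrp4 and Sfrp5 were above it throughout, while Dkk1, Dkk2, Dkk4 and Sfrp2 were on none.

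**Figure D1:**
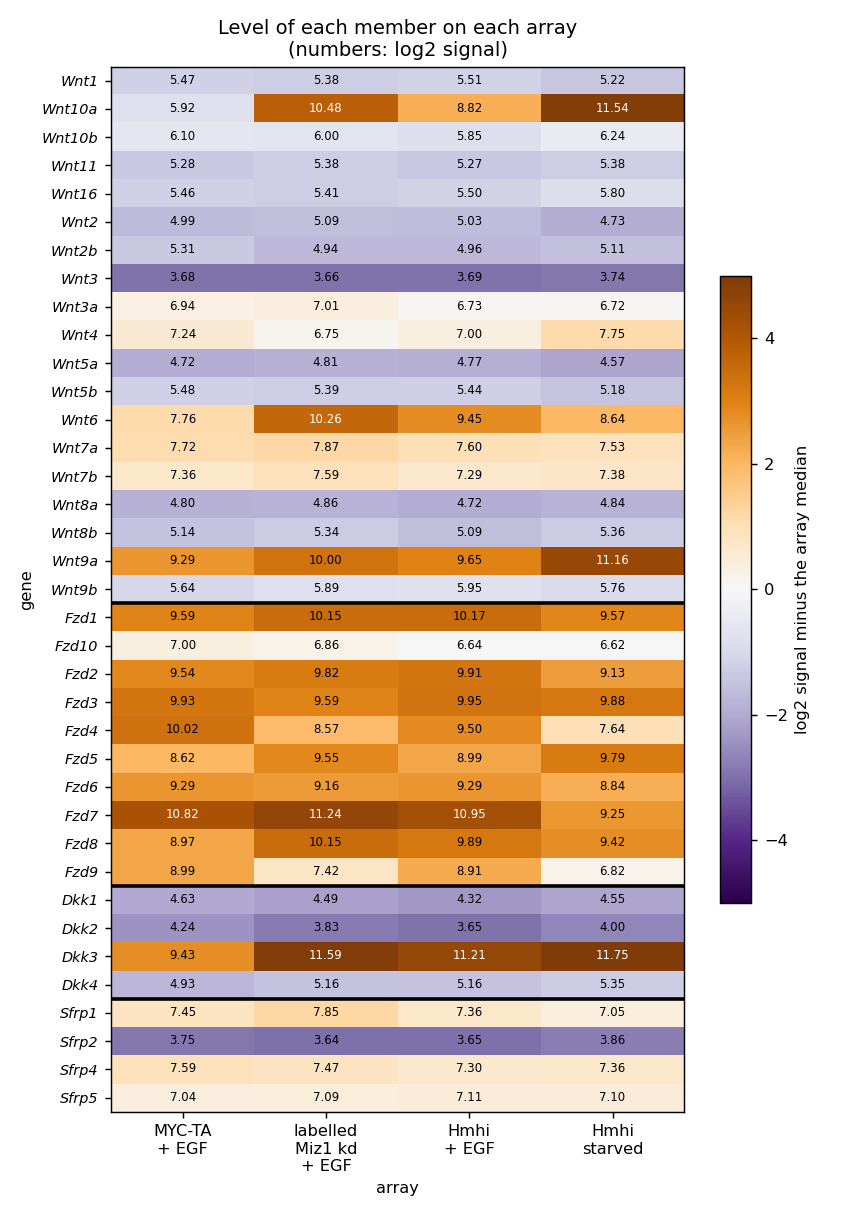
Log2 signal of each of the 37 members (rows, grouped as Wnt, Fzd, Dkk and Sfrp) on the 4 arrays (columns), with colour showing the signal minus the array median. Frizzled genes are near or above the median on every array, and 12 of 19 ligands are below it on every array.

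The remaining 12 ligands (Wnt1, Wnt2, Wnt2b, Wnt3, Wnt5a, Wnt5b, Wnt8a, Wnt8b, Wnt9b, Wnt10b, Wnt11 and Wnt16) read between 3.66 and 6.24, with no gene spanning more than 0.40 across the arrays. Signals this low are limited by background, so no change of these ligands was detectable, which does not show that they are absent. Wnt3a was barely above the median, at 6.94 in MYC-TA, 7.01 in the labelled Miz1 kd, 6.73 in Hmhi EGF and 6.72 in Hmhi starved. Wnt7a and Wnt7b, ligands of limb, lung and nervous system development, spanned 7.53 to 7.87 and 7.28 to 7.59. Across all 37 members, 23 spanned less than 0.5 and 10 spanned at least 1.

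Among the ligands, Wnt10a, which acts through beta-catenin in hair follicles and teeth, had the widest span, 5.63 on the log2 scale. It read 5.92 in MYC-TA, 10.48 in the labelled Miz1 kd, 8.82 in Hmhi EGF and 11.54 in Hmhi starved. Starved Hmhi cells thus gave its highest signal, and in MYC-TA it was the lowest and below the array median. The Hmhi EGF value was 6.63-fold below that of Hmhi starved, a log2 difference of -2.73. Against Hmhi EGF it was 3.18-fold higher on the array labelled Miz1 kd (1.67) and 7.47-fold lower in MYC-TA (-2.90), and background limits the size of the second. Only 1 probe set reads the gene, so none of these differences has a second measurement.

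Wnt6, a ligand of developing epithelia, shared part of this pattern. Its brighter probe set read 7.76 in MYC-TA, 10.26 in the labelled Miz1 kd, 9.45 in Hmhi EGF and 8.64 in Hmhi starved. The dimmer set read 5.80 in MYC-TA, 8.62 in the labelled Miz1 kd, 7.96 in Hmhi EGF and 7.68 in Hmhi starved. Both sets put MYC-TA lowest and the labelled Miz1 kd highest. MYC-TA minus Hmhi EGF was -1.69 and -2.16 on the 2 sets, the second limited by background since the MYC-TA signal was below the median, and the labelled Miz1 kd minus Hmhi EGF was 0.81 and 0.66. With EGF the gene went the other way from Wnt10a, since Hmhi EGF minus Hmhi starved was 0.81 and 0.28, the second of which is within the spread between probe sets.

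In the RefSeq gene table of GRCm38.p6, Wnt6 and Wnt10a are adjacent protein-coding genes on chromosome 1. Wnt3a with Wnt9a and Wnt9b with Wnt3 on chromosome 11, and Wnt10b with Wnt1 on chromosome 15, are the other adjacent pairs of members. In those pairs Wnt9a was the only gene at least 2-fold apart in a comparison. Wnt9a, a ligand of joint development, read 9.29 in MYC-TA, 10.00 in the labelled Miz1 kd, 9.65 in Hmhi EGF and 11.16 in Hmhi starved. Its starved signal stood above the 3 EGF arrays, with a log2 difference of -1.51 for Hmhi EGF minus Hmhi starved. Its second probe set lay between 4.11 and 4.28 and showed no such difference, at 0.04. The neighbouring Wnt3a differed by 0.00 in the same comparison, and Wnt4, a ligand of kidney and ovary development, by -0.75.

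**Figure D2:**
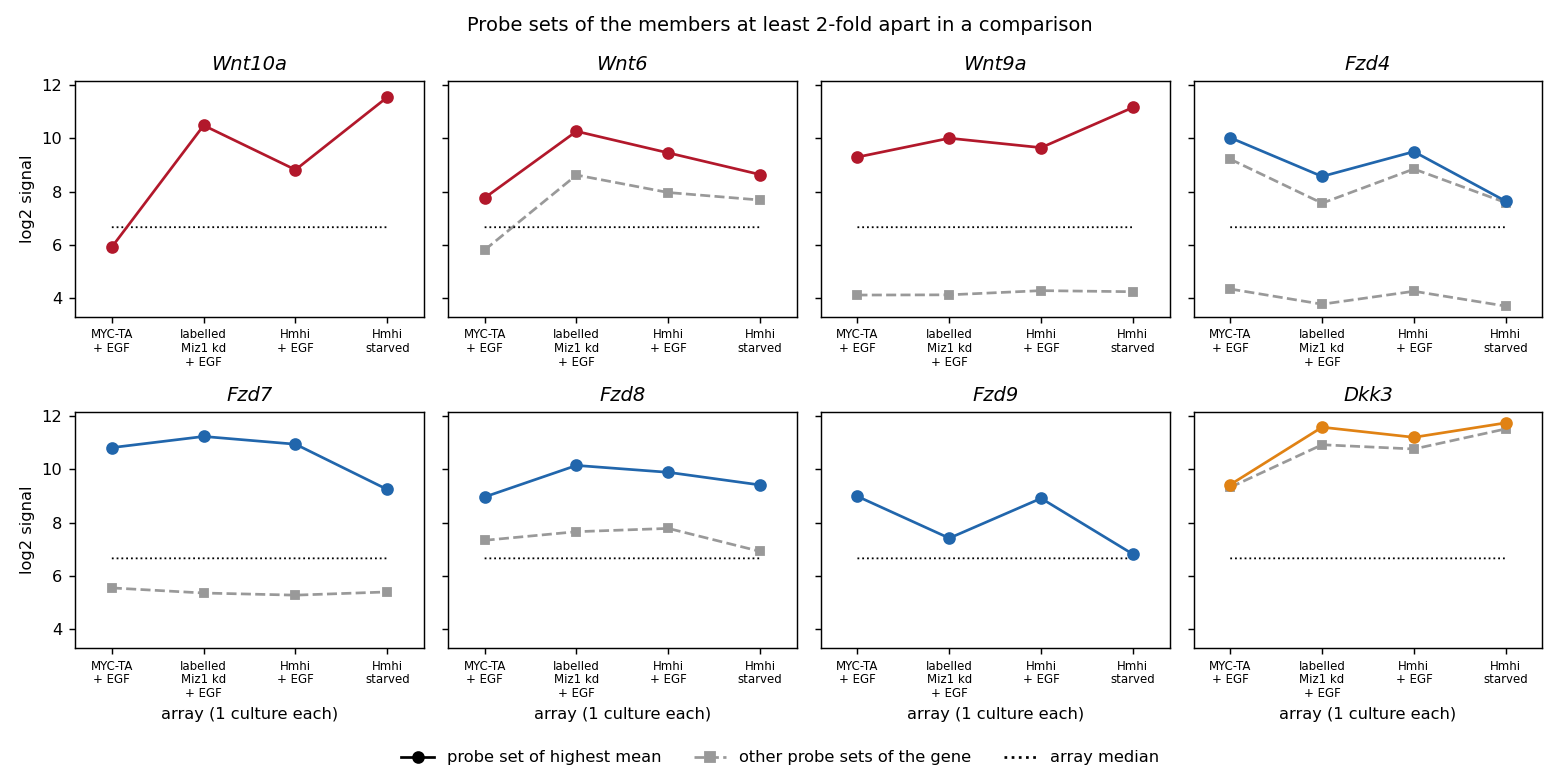
Log2 signal of each probe set of the 8 members at least 2-fold apart in a comparison, by array (1 culture each), with the array median dotted. Both brighter probe sets of Fzd4 have MYC-TA and Hmhi EGF high, both of Wnt6 and of Dkk3 have MYC-TA lowest, and the dim second sets of Wnt9a and Fzd7 are flat below the median.

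For 9 Frizzled receptors the brighter signal of Hmhi EGF and Hmhi starved reached the array median. Of these, 8 had a higher signal in Hmhi EGF than in Hmhi starved, against 5787 of 11461 genes. That count rests on the chosen sets, since Fzd3 gave only 0.07, within the spread between probe sets. Other sets past the filter gave -0.54, -0.25 and 0.11 for Fzd3 and -0.17 for Fzd6. At least 2-fold higher were 3 of the 9 (Fzd4, Fzd7 and Fzd9, 33.3%), against 7.98% of those genes. Fzd9 read 8.99 in MYC-TA, 7.42 in the labelled Miz1 kd, 8.91 in Hmhi EGF and 6.82 in Hmhi starved, on a single probe set. MYC-TA and Hmhi EGF were thus alike and high and the other 2 arrays low, with Hmhi starved so near the median that background limits the size of that difference. The difference was 2.10 for Hmhi EGF minus Hmhi starved, -1.50 for the labelled Miz1 kd minus Hmhi EGF and 0.07 for MYC-TA minus Hmhi EGF. Fzd4, which also serves as receptor of Norrin in retinal vessels, read 10.02 in MYC-TA, 8.57 in the labelled Miz1 kd, 9.50 in Hmhi EGF and 7.64 in Hmhi starved. On this probe set the order of the arrays was the same as for Fzd9, whereas on the next one the labelled Miz1 kd and Hmhi starved were level, at 7.56 and 7.58. Its difference was 1.86 for Hmhi EGF minus Hmhi starved, and the next set gave 1.27. For the labelled Miz1 kd minus Hmhi EGF these sets gave -0.93 and -1.29, one on each side of the 2-fold line.

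Fzd7, a receptor common in embryonic and stem cells, set the starved culture apart from the 3 EGF cultures. It read 10.82 in MYC-TA, 11.24 in the labelled Miz1 kd, 10.95 in Hmhi EGF and 9.25 in Hmhi starved. All 3 EGF arrays were at least 1.57 above the starved one, and Hmhi EGF exceeded it by 1.70. Its second probe set lay below the median on every array and gave -0.12. Fzd8 read 8.97 in MYC-TA, 10.15 in the labelled Miz1 kd, 9.89 in Hmhi EGF and 9.42 in Hmhi starved. On this set it was lowest in MYC-TA, by -0.92 against Hmhi EGF and -1.18 against the labelled Miz1 kd, while its dimmer set gave -0.45 and -0.32 and was lowest in Hmhi starved, at 6.92.

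Fzd5 was highest in Hmhi starved and lowest in MYC-TA, at 8.62 in MYC-TA, 9.55 in the labelled Miz1 kd, 8.99 in Hmhi EGF and 9.79 in Hmhi starved. Fzd1 read 9.59 in MYC-TA, 10.15 in the labelled Miz1 kd, 10.17 in Hmhi EGF and 9.57 in Hmhi starved. Fzd1 and Fzd2 exceeded their Hmhi starved signal in Hmhi EGF by 0.60 and 0.78, and all 3 probe sets of Fzd2 gave between 0.56 and 0.78. Fzd3 and Fzd6, receptors of axon guidance and hair orientation, differed by less than 2-fold in every comparison. Fzd3 read 9.93 in MYC-TA, 9.59 in the labelled Miz1 kd, 9.95 in Hmhi EGF and 9.88 in Hmhi starved, and Fzd6 lay between 8.84 and 9.29. Other probe sets of Fzd3 gave values between -0.54 and 0.11 for Hmhi EGF minus Hmhi starved, so its small differences depended on the set.

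Of the antagonists, Dkk3 was lower in MYC-TA on both probe sets. Dkk3, a divergent Dickkopf whose effect on WNT signals varies with the cell type, read 9.43 in MYC-TA, 11.59 in the labelled Miz1 kd, 11.21 in Hmhi EGF and 11.75 in Hmhi starved. MYC-TA stood apart from the other 3 arrays, which lay within 0.54 of each other. The 2 sets gave -1.78 and -1.44 for MYC-TA minus Hmhi EGF, and -2.16 and -1.60 for MYC-TA minus the labelled Miz1 kd. Dkk1 and Dkk4, which bind the Lrp co-receptors, gave no signal above the median. Dkk1 read 4.63 in MYC-TA, 4.49 in the labelled Miz1 kd, 4.32 in Hmhi EGF and 4.55 in Hmhi starved, and Dkk4 read 4.93 in MYC-TA, 5.16 in the labelled Miz1 kd, 5.16 in Hmhi EGF and 5.35 in Hmhi starved.

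No Sfrp gene was 2-fold apart in any comparison. Sfrp1 read 7.45 in MYC-TA, 7.85 in the labelled Miz1 kd, 7.36 in Hmhi EGF and 7.05 in Hmhi starved. Sfrp4 read 7.59 in MYC-TA, 7.47 in the labelled Miz1 kd, 7.30 in Hmhi EGF and 7.36 in Hmhi starved. Sfrp5 read 7.04 in MYC-TA, 7.09 in the labelled Miz1 kd, 7.11 in Hmhi EGF and 7.10 in Hmhi starved. Its second probe set was not as even and lay above the median in Hmhi EGF alone, at 7.08. That set gave 0.86 for Hmhi EGF minus Hmhi starved and -0.79 for the labelled Miz1 kd minus Hmhi EGF. Sfrp1 was thus highest in the labelled Miz1 kd, by 0.49 over Hmhi EGF, but its next probe set gave 0.23, about the spread between probe sets.

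**Figure D3:**
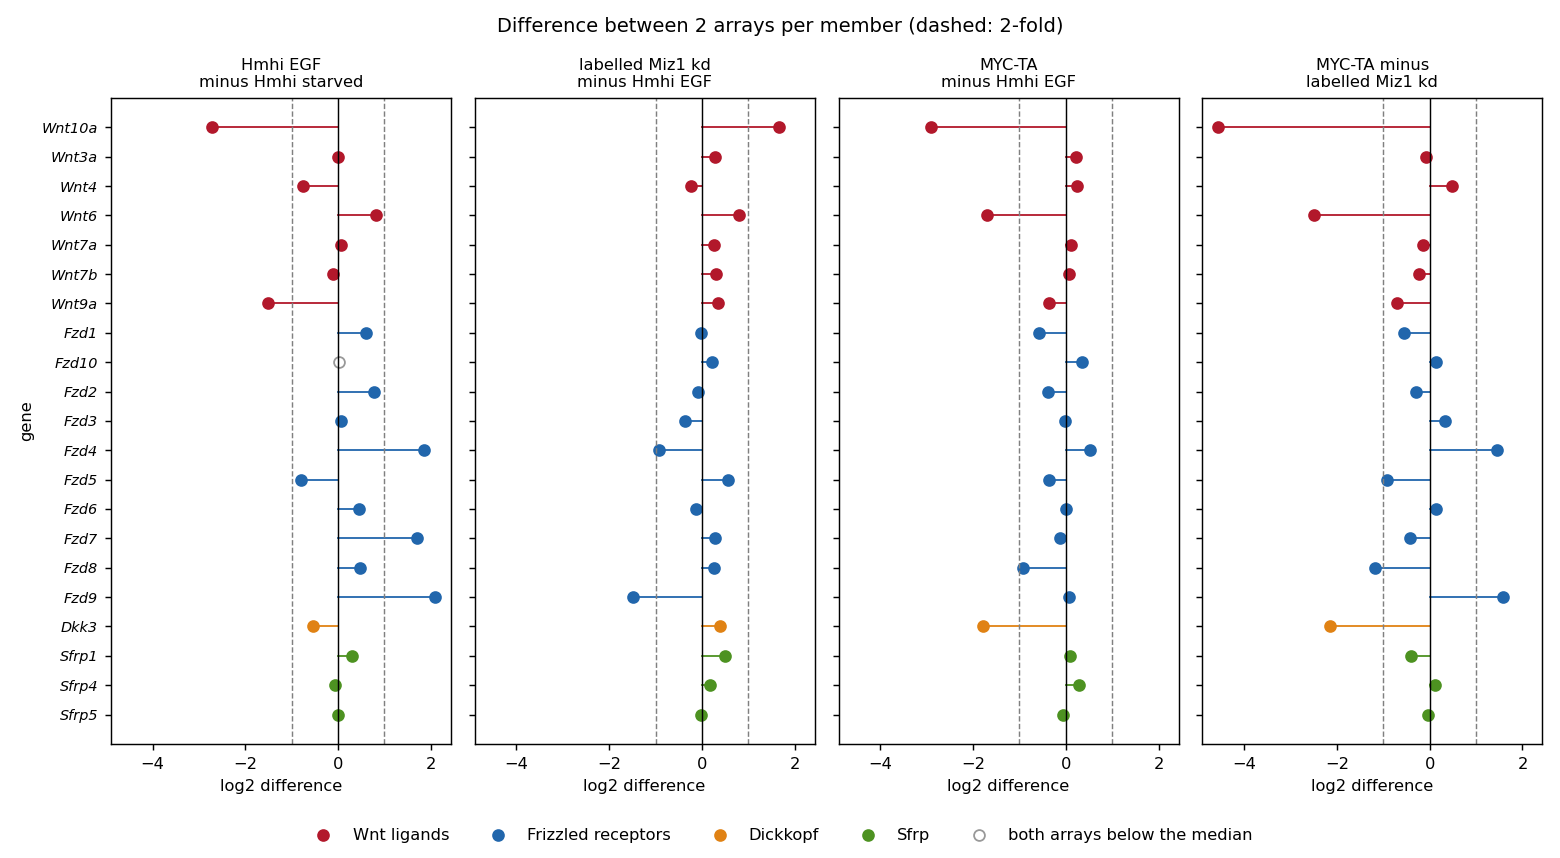
Log2 difference between 2 arrays for the 21 members above the median on an array, in the 4 comparisons, with dashed lines at 2-fold. Wnt10a is on the negative side in 3 panels and positive in the labelled Miz1 kd, and Fzd4 and Fzd9 lie beyond 2-fold in the EGF panel and in MYC-TA minus the labelled Miz1 kd.

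The comparisons were of Hmhi EGF with Hmhi starved, and of the MYC-TA and labelled Miz1 kd cultures with Hmhi EGF and with each other. By count, the family was set beside all genes whose brighter array reached the median. With EGF, 20 of 37 members passed this filter, 3 were at least 2-fold higher (Fzd4, Fzd7 and Fzd9) and 2 at least 2-fold lower (Wnt9a and Wnt10a) than in Hmhi starved. That is 25.0%, against 12.9% of 11461 genes (7.98% higher and 4.96% lower), with a median difference of 0.07 over those members and 0.01 over those genes. Ligands and receptors differed in their medians, at -0.10 over 7 Wnt genes and 0.60 over 9 Fzd genes. On the array labelled Miz1 kd, Wnt10a was 2-fold higher and Fzd9 2-fold lower than in Hmhi EGF among 21 members (9.52%, against 2.79% of 11394 genes, 0.290% higher and 2.50% lower), with medians of 0.26 and 0.02. In MYC-TA, Dkk3, Wnt6 and Wnt10a were 2-fold lower than in Hmhi EGF and none was higher (14.3%, against 2.95% of 11534 genes, 1.30% higher and 1.65% lower), with medians of -0.02 and 0.045. MYC-TA minus the labelled Miz1 kd had Fzd4 and Fzd9 higher and Dkk3, Fzd8, Wnt6 and Wnt10a lower (28.6%, against 11.0% of 11613 genes, 6.72% higher and 4.26% lower), with medians of -0.23 and 0.04. Members that passed through their brighter array alone were bound to differ, and comparisons share arrays, so these shares are a description. Members that did not pass differed by at most 0.59 in any of them.

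Of 62 other genes listed for the pathway, 60 were measured and 2 were not analysed here. With EGF, 5 were at least 2-fold higher and 1 lower among 43 that passed (14.0%, against 12.9%). Celsr2, an adhesion receptor of planar polarity, read 10.98 in Hmhi EGF and 8.78 in Hmhi starved, and Vangl2, a membrane core protein of the same system, 9.57 in Hmhi EGF and 8.16 in Hmhi starved. Prickle1, its cytoplasmic partner, read 9.30 in Hmhi EGF against 11.79 in Hmhi starved, a difference of -2.49. Its other probe sets, below the median on every array, gave 0.00 and -0.43. Vangl1, a relative of Vangl2, gave -0.83 and -1.05 on its 2 probe sets. Kremen1, a receptor of Dickkopf proteins, was higher by 1.21, Cd44 by 1.96 and Dct, a melanin synthesis enzyme and a target of MITF, by 1.48. Dimmer sets of Kremen1, below the median, gave 0.18 and 0.72.

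On the array labelled Miz1 kd, Dct alone of 43 was 2-fold apart from Hmhi EGF, at 9.19 in the labelled Miz1 kd against 11.26 in Hmhi EGF (2.33%, against 2.79%). In MYC-TA, 2 of 44 were higher than in Hmhi EGF and 1 lower (6.82%, against 2.95%). Lgr5, a receptor of R-spondins, read 6.98 in MYC-TA and 5.87 in Hmhi EGF, below the median, and Prickle1 10.40 in MYC-TA and 9.30 in Hmhi EGF. Lgr5 passed through its MYC-TA signal alone, as it also did against the labelled Miz1 kd (5.53). It was thus bound to differ, so these pathway shares are a description. Tnfrsf19 was lower, at 8.65 in MYC-TA and 10.05 in Hmhi EGF. Dimmer sets of these genes did not pass the filter here. They gave 0.22 for Lgr5, 0.08 and 0.12 for Prickle1, and 0.14 and -0.25 for Tnfrsf19. MYC-TA minus the labelled Miz1 kd had 6 genes higher and 3 lower of 44 (20.5%, against 11.0%). The higher ones were Lgr5, Ptk7, Ryk, Prickle1, Dct and Tcf7l2, and the lower ones Dvl1, Myc and Tnfrsf19. Tcf7l2, a TCF factor, read 9.22 in MYC-TA and 7.43 in the labelled Miz1 kd. On other sets past the filter, Ryk gave 0.74 and 0.77, under 2-fold, Tcf7l2 2.13 and Dvl1 -1.07. Sets that did not pass gave -0.06 and -0.13 for Prickle1 and 0.15 for Lgr5. They gave 0.34 and 0.18 for Tcf7l2, and -0.14 and -0.26 for Tnfrsf19.

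Of 13 genes counted as targets of beta-catenin, 12 passed the filter with EGF. Of these, 2 (16.7%, against 12.9% of all genes) were 2-fold apart. For MYC-TA minus the labelled Miz1 kd, 3 of 12 were (25.0%, against 11.0%). Lef1 and Lgr5, also listed as targets, were counted under other roles. Lgr5, 1.45 apart in the second comparison, is thus not among these 3. Axin2, a negative feedback gene, read 6.58 in MYC-TA, 6.76 in the labelled Miz1 kd, 7.13 in Hmhi EGF and 6.91 in Hmhi starved, close to the median throughout. Lef1, itself a TCF and LEF factor, lay between 8.03 and 8.43, Nkd1 between 6.59 and 6.95, and Sp5 between 5.79 and 5.97, below the median. Other listed targets spanned more. Dct read 11.08 in MYC-TA, 9.19 in the labelled Miz1 kd, 11.26 in Hmhi EGF and 9.79 in Hmhi starved. Cd44 read 12.70 in MYC-TA, 12.55 in the labelled Miz1 kd, 12.70 in Hmhi EGF and 10.74 in Hmhi starved. Fosl1, an AP-1 subunit, read 7.20 in MYC-TA, 7.74 in the labelled Miz1 kd, 6.76 in Hmhi EGF and 5.85 in Hmhi starved. Its Hmhi starved signal lay below the median and its Hmhi EGF signal barely above, so background limits that difference. Its dimmer set, below the median on every array, gave 0.56. These 3 targets were each lower in Hmhi starved than in Hmhi EGF, but the median difference over the 12 was only 0.07. Jun and Id2 went the other way, at 11.16 and 10.98 in Hmhi starved against 10.41 and 10.40 in Hmhi EGF. A dimmer set of Id2 gave 0.36 for Hmhi EGF minus Hmhi starved. That set also gave -2.07 for MYC-TA minus Hmhi EGF and -3.04 for MYC-TA minus the labelled Miz1 kd. The chosen set of Id2 gave -0.43 and -0.90, and its other bright set -0.66 and -1.225. Background limits the dimmer set, whose MYC-TA signal was 5.51. Mitf was also highest in Hmhi starved, at 9.65 in MYC-TA, 9.96 in the labelled Miz1 kd, 9.91 in Hmhi EGF and 10.81 in Hmhi starved. Of the genes that make, carry and receive the ligands, Porcn, which acylates them, read 7.78 in MYC-TA, 6.89 in the labelled Miz1 kd, 7.44 in Hmhi EGF and 8.40 in Hmhi starved. Lrp5 lay below the median on every array, between 5.34 and 6.30. Wls, which carries ligands to the cell surface, lay between 12.23 and 12.58, Lrp6 between 10.54 and 10.91 and Ctnnb1, the gene of beta-catenin, between 13.00 and 13.50.

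**Figure D4:**
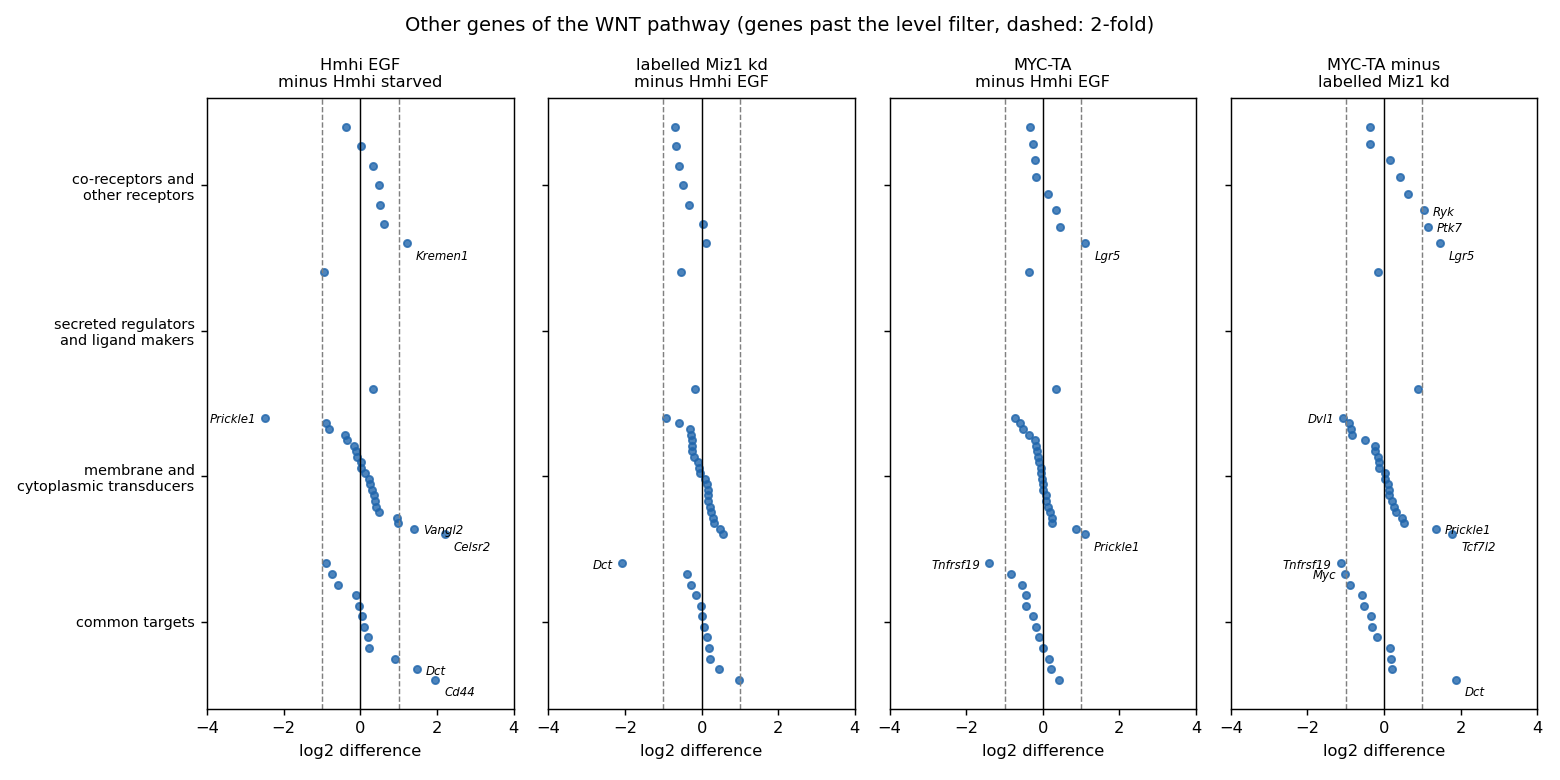
Log2 difference between 2 arrays for other WNT pathway genes past the level filter, by role (rows) and comparison (panels), with genes at least 2-fold apart named and dashed lines at 2-fold, and points in a row set apart by rank only. Named genes number 6 with EGF, 1 on the array labelled Miz1 kd, 3 in MYC-TA and 9 between MYC-TA and the labelled Miz1 kd.

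Pigment cell and stromal markers also differed between these arrays, and their part in the results was not tested. The 14 melanocyte markers had a mean log2 level of 9.30 in MYC-TA, 9.92 in the labelled Miz1 kd, 10.00 in Hmhi EGF and 9.61 in Hmhi starved. Single markers did not follow 1 order. Oca2 read 6.20 in MYC-TA, 10.09 in the labelled Miz1 kd, 9.36 in Hmhi EGF and 8.29 in Hmhi starved, and Slc45a2 was also lowest in MYC-TA, at 6.97. Kit was highest in MYC-TA, at 7.53, and Pmel read 8.06 in MYC-TA, 7.73 in the labelled Miz1 kd, 8.62 in Hmhi EGF and 7.11 in Hmhi starved. The 8 fibroblast markers had means between 7.20 and 7.40, with 4 above the median in MYC-TA, 3 in the labelled Miz1 kd, 4 in Hmhi EGF and 4 in Hmhi starved. Their defining collagens Col1a1 and Col1a2 read at most 6.97, but single markers differed in opposite directions beneath these means. Col3a1 read 9.69 in MYC-TA, 6.25 in the labelled Miz1 kd, 7.21 in Hmhi EGF and 6.59 in Hmhi starved, while Pdgfrb read 6.91 in MYC-TA, 11.16 in the labelled Miz1 kd, 10.18 in Hmhi EGF and 10.45 in Hmhi starved. Dcn was above the median throughout, between 9.45 and 11.56. The 6 keratinocyte markers had means between 5.83 and 5.95, and the 3 endothelial markers between 5.47 and 5.63. The 5 leukocyte markers had means between 6.34 and 6.54, with Ptprc at most 4.58, and 2 of them set the starved culture apart. Csf1r read 6.72 to 6.87 on the 3 EGF arrays and 9.41 in Hmhi starved, and Cd68 8.05 to 8.28 on the EGF arrays and 6.55 in Hmhi starved. Of the Schwann cell markers, Mbp read between 13.95 and 14.70 and Ngfr between 6.23 and 6.36, and 2 others were not analysed here.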

How the data were processed

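Total RNA (100 ng) was turned into biotinylated cRNA, per the labels' protocols, and hybridised to Affymetrix arrays. Deposited values of 45101 probe sets lay between 2.94 and 15.12 and were read as log2 signals. The log base, summarization and normalization of the authors are not given in the sources used here. Once sorted, the 4 columns were at most 0.004 apart, as after quantile normalization, so equal medians are imposed. The platform annotation gave 1 symbol for 34945 probe sets, several for 932 and none for 9160, besides 64 controls. All 73 member probe sets matched RefSeq by Entrez identifier, with 0 symbols changed.

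A gene passed if its brighter signal reached the median of its array, and differences of at least 2-fold were counted. No test was possible. Members, lists and rules were chosen with earlier results of these data known. Every member above the median was named, all 4 values were given for members 2-fold apart and for the 3 of highest mean in each family, and pathway genes were named where 2-fold apart. Porcn, Lrp5, Lrp6, Wls, Ctnnb1, Fosl1, Jun, Id2 and Vangl1, and the single markers named, were chosen after their values were seen. The counting was tested on simulated data. Alternatives were a common median, quantile normalization, loess with span 0.4, no filter, a stricter filter (75th percentile), averaging a gene's probe sets and plain _at sets. Python 3.11.15, pandas 2.3.3, numpy 2.4.6, statsmodels 0.14.6 and matplotlib 3.10.9 were used.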

Additional observations from a re-analysis of the deposited data

How the results depend on the processing

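No paired analysis was possible because there was only 1 array a condition, which also kept any array from being left out. Of the 16 member differences of at least 2-fold, 13 stayed 2-fold apart with their direction under all 7 alternatives, and none changed sign. The 3 others fell short with the mean of all probe sets, where Fzd7 and Wnt9a gave 0.79 and -0.73 with EGF and Fzd8 gave -0.75 for MYC-TA minus the labelled Miz1 kd. Those means include the dimmer sets described above, and the EGF count was then 3 members in place of 5. Most alternatives could hardly move a member's difference. The filters and the plain _at sets left each value as it was. A common median and quantile normalization nearly did so, since the columns were already alike. Averaging could not move Wnt10a or Fzd9, which have 1 probe set each. The filter at the 75th percentile kept 13 members and moved the family median to 0.48 with EGF, from 0.07, and to -0.36 in MYC-TA minus Hmhi EGF, from -0.02, so the family medians depend on the filter. The median of the genes' chosen probe sets is higher than that of all probe sets and splits all genes evenly. Above it lay 11 of 37 members in MYC-TA, 14 in the labelled Miz1 kd, 13 in Hmhi EGF and 12 in Hmhi starved. These counts replace 20, 21, 20 and 20, and fewer members then lay above than below on each array. Averaging probe sets gave 15, 16, 16 and 15 above the main median, in the same order. Signal over background limits Wnt10a in MYC-TA and the 16 members below the median throughout.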
